A study of Paxillus involutus ATCC 200175 with 12 samples.

Results

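A set of 40 of the microarray's 12214 features formed a narrow group whose transcript level in the ectomycorrhizal fungus Paxillus involutus was higher with glucose and lower with ammonium. The members were chosen by group means of the log2 values: a mean over the 12 arrays of 6 or more, at least 0.5 higher with glucose in the absence of ammonium, at least 0.4 higher with glucose in its presence, at least 0.25 lower with ammonium in the absence of glucose, and lower with ammonium in the presence of glucose by at least 0.25 but under 0.5. The first condition held for 11499 features, the glucose conditions together with it for 1372, the ammonium condition without glucose for 415 of these, the lower bound with glucose for 44 and the upper bound for 40. Every group mean entered this choice, so the 4 differences are given as a description and support nothing by themselves. Of the 40 members, 15 met the same thresholds when OM replicate 2 and OM+N replicate 1, a pair of arrays that stood apart from their groups, were left out.

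Mycelium of strain ATCC 200175 was grown without a host plant in Petri dishes on glass beads for 9 days, was then deprived of nitrogen for 24 h and was kept for 7 more days with organic matter extracted from maize compost by hot water. Particles above 0.2 um and molecules below 10 kDa had been taken out of the extract. All groups received it: OM had the extract alone, OM+G had glucose added, OM+N had ammonium added and OM+N+G had both, with 3 arrays in each. The design text names 3 separate cultures, taken here as 3 for each group. The sources used here do not state how much glucose or ammonium was added.

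Ectomycorrhizal fungi live on the fine roots of trees, receive sugars from the host and pass on nitrogen and other nutrients from the soil. Much soil nitrogen is bound in organic matter, and Paxillus involutus is known for attacking such matter with an oxidative chemistry that resembles that of brown-rot fungi. Ammonium is a nitrogen source that fungi take up readily, and in many fungi its presence lowers the transcription of genes for the use of other nitrogen sources. The comparison asks where in the transcriptome the supply of carbon and of mineral nitrogen act in opposite directions. The files list the features by running numbers without gene names, and 0 of the 12214 numbers matched the 18033 genes of the reference table, so no role, protein or sequence is given for any member. Markers of the species could not be checked for the same reason.

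The levels are RMA values, read as log2, of 1 value per feature and array. A difference of 1 stands for a doubling relative to the other transcripts of the array, and a change in total RNA cannot be seen. In such bulk mycelium, fewer active cells and less RNA per cell cannot be told apart. The arrays had medians between 11.74 and 11.78 and the random-sequence control lay between 3.66 and 3.80. Groups occupied consecutive positions on 1 slide, OM subarrays 1 to 3, OM+N 4 to 6, OM+G 7 to 9 and OM+N+G 10 to 12, so slide position and treatment cannot be told apart.

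All members were well above the control, with means over the 12 arrays from 10.45 to 13.42. Medians of the members' group means were 12.04 for OM, 12.85 for OM+G, 11.62 for OM+N and 12.48 for OM+N+G. The order of the group means was the same in all 40, with OM+G highest, then OM+N+G, then OM, and OM+N lowest. The rule fixes this whole order. It also sets OM+N+G above OM, because OM+G must exceed OM by at least the bound that OM+G minus OM+N+G must stay under. The difference between OM+N+G and OM ran from 0.03 in paxillus_8739 to 1.04 in paxillus_5382 (median 0.40).

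**Figure D1:**
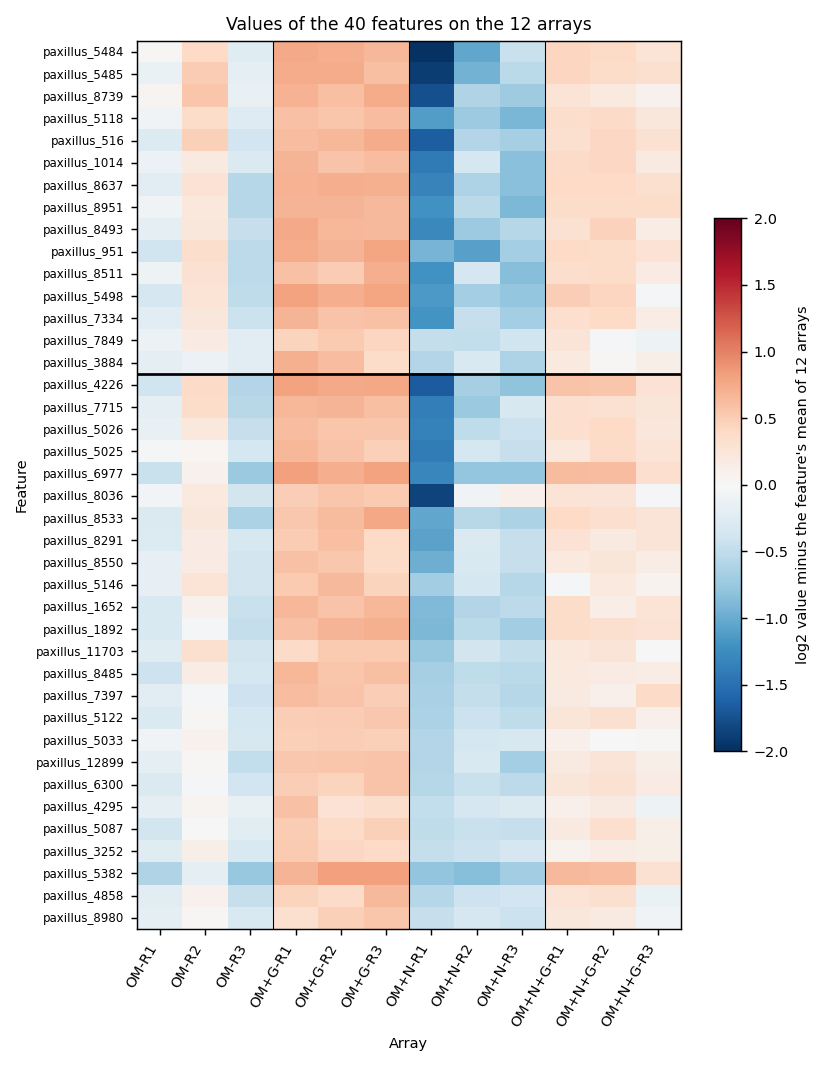
Each row is one of the 40 features and each column one of the 12 arrays; colour gives the log2 value minus the feature's own mean over the 12 arrays. Above the black line are the 15 features that met the thresholds without OM-R2 and OM+N-R1, and below it the other 25. OM+G columns are the highest throughout, OM-R2 is the highest OM column in all 40 rows and OM+N-R1 the lowest OM+N column in 35.

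The medians of the glucose differences were above those of the ammonium differences. Without ammonium the members were 0.51 to 1.29 higher in OM+G than in OM, with a median of 0.72 or 1.64-fold. With ammonium they were 0.43 to 1.52 higher in OM+N+G than in OM+N, with a median of 1.03 or 2.05-fold. For ammonium, OM lay 0.25 to 1.22 above OM+N (median 0.49, 1.40-fold), and OM+G lay 0.25 to 0.49 above OM+N+G (median 0.33, 1.26-fold). With glucose present, this order follows from the rule. In 6 members, paxillus_516, paxillus_1014, paxillus_5118, paxillus_5484, paxillus_5485 and paxillus_8739, OM minus OM+N was larger than OM+G minus OM. Over all 12214 features the medians of these 4 differences were -0.03, -0.06, -0.03 and 0.01.

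Arrays within a group were tight with glucose and scattered without it. The standard deviation over 3 arrays had a median of 0.06 for OM+G and 0.09 for OM+N+G, against 0.30 for OM and 0.22 for OM+N. In 38 of the 40 members the OM arrays were more spread than the OM+G arrays, and in 30 the OM+N arrays more than the OM+N+G arrays. Among the 11499 features whose mean was 6 or more these shares were 70.9% and 54.7%. Over those features the median standard deviations were 0.06 for OM+G, 0.07 for OM+N+G, 0.10 for OM and 0.08 for OM+N. The members' pooled standard deviation had a median of 0.24, against 0.09 over those features. The same median was 0.14 over the 1332 other features that met the mean and glucose conditions.

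The spread had a common shape. OM replicate 2 was the highest OM array in all 40 members, 0.33 above the group mean in the median, and OM replicate 3 the lowest in 37. OM+N replicate 1 was the lowest OM+N array in 35 members, by 0.25 below the group mean in the median and by up to 1.25. OM+N+G replicate 3 was the lowest of its group in 31 members, but by only 0.08 in the median. Over the 11499 brighter features, OM replicate 2 was highest in 34.9% and OM+N replicate 1 lowest in 25.9%.

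A raised OM replicate 2 and a lowered OM+N replicate 1 were not particular to the members. The rule's first 3 conditions leave 1332 other features that were higher with glucose at both ammonium levels. In these, OM replicate 2 was the highest OM array in 92.6% and OM+N replicate 1 the lowest OM+N array in 66.3%. Their OM mean lay above their OM+N mean in 83.9% of cases with all arrays and in 50.2% without the 2 arrays, and the median difference went from 0.15 to 0.001. The members' median went from 0.49 to 0.19 on the same step. The difference of OM+G and OM+N+G, which holds neither array, had a median of 0.01 in the other glucose-raised features, where the rule put the members at 0.25 or more.

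**Figure D2:**
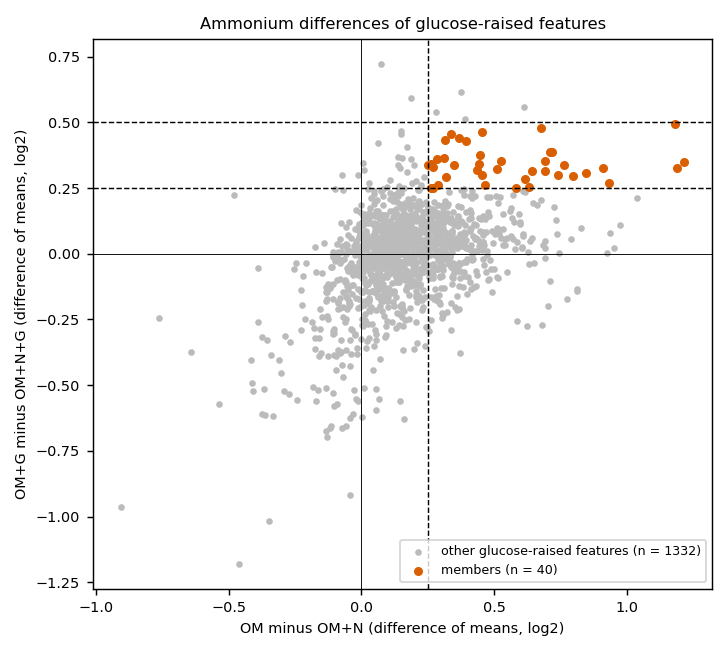
Points are the 1372 features higher with glucose at both ammonium levels; the horizontal axis gives the OM mean minus the OM+N mean and the vertical axis the OM+G mean minus the OM+N+G mean, both log2. Dashed lines mark the bounds of 0.25 and 0.5 that chose the 40 members (orange); the grey cloud of the other 1332 is shifted to the right of 0 on the horizontal axis (median 0.15) and centred near 0 on the vertical axis (median 0.01).

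Members also varied together from array to array. The correlation of their deviations from the group means over the 12 arrays had a median of 0.75 over the 780 pairs of members. It was 0.51 over pairs of the other glucose-raised features and 0.03 over all pairs of the 11499 brighter features. All these values share the same 12 arrays, so OM replicate 2 and OM+N replicate 1 enter each of them. The rule used the means that hold these 2 arrays, so the choice can itself favour members that share their deviations. The correlation was not computed without the 2 arrays, and the values are a description only.

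Leaving out both arrays moved the ammonium difference without glucose and left that with glucose as it was. The OM mean stayed above the OM+N mean in 39 of the 40 members, but only 15 remained at or above 0.25. All 25 that dropped out missed this bound, and 3 of them, paxillus_4295, paxillus_5033 and paxillus_8036, also missed the bound of 0.4 on the glucose difference with ammonium. The median of that glucose difference went from 1.03 to 0.80, while the glucose difference without ammonium went from 0.72 to 0.85. Only 1 feature, paxillus_8233, met the thresholds without the 2 arrays and not with them. Its OM+G mean lay 0.43 above OM with all arrays and 0.54 above it without them.

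**Figure D3:**
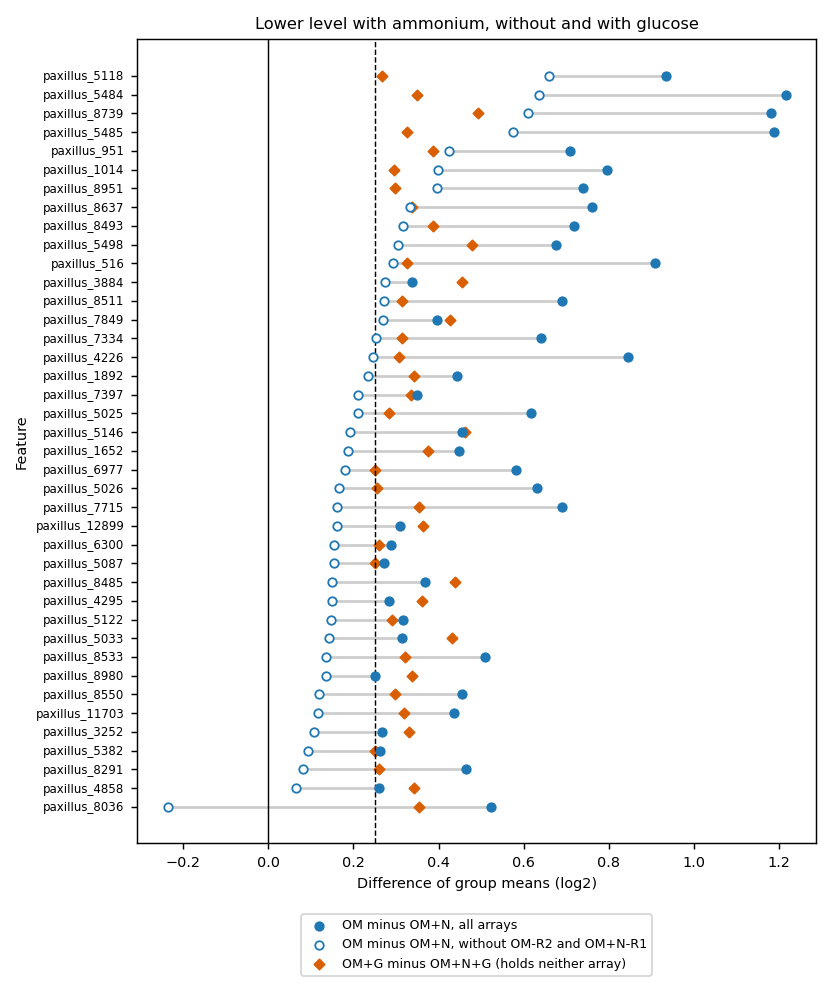
Each row is a member; filled circles give the OM mean minus the OM+N mean over all arrays, open circles the same without OM-R2 and OM+N-R1, and diamonds the OM+G mean minus the OM+N+G mean, all log2. The dashed line is the bound of 0.25: the open circles of 15 members lie at or above it, and that of paxillus_8036 lies below 0 at -0.24.

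The 15 members that kept the pattern were paxillus_516, paxillus_951, paxillus_1014, paxillus_3884, paxillus_5118, paxillus_5484, paxillus_5485, paxillus_5498, paxillus_7334, paxillus_7849, paxillus_8493, paxillus_8511, paxillus_8637, paxillus_8739 and paxillus_8951. Without the 2 arrays their OM mean was 0.25 to 0.66 above the OM+N mean (median 0.33), and their OM+G mean 0.64 to 1.20 above OM. The OM+N+G mean was 0.49 to 1.23 above OM+N. All 15 met the thresholds also when both arrays were left out after cyclic loess, scaling to the 75th percentile or quantile normalization of the values. With all arrays, 4 of the 15 missed a threshold after a normalization: paxillus_5484 and paxillus_5485 after cyclic loess, paxillus_7849 after percentile scaling and paxillus_8739 after each of the 3.

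Among the 15, 4 differed most between OM and OM+N, and in these the difference without the 2 arrays was 0.57 or more. In paxillus_5118 the log2 values of replicates 1, 2 and 3, an order kept below, were 11.58, 12.02 and 11.40 in OM, 12.24, 12.21 and 12.28 in OM+G, 10.53, 10.92 and 10.74 in OM+N, and 12.01, 12.04 and 11.88 in OM+N+G. Every OM array was above every OM+N array, by at least 0.47. The OM mean exceeded the OM+N mean by 0.93, and by 0.66 without the 2 arrays.

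The features paxillus_5484 and paxillus_5485 carry consecutive numbers. In paxillus_5484 the values were 13.26, 13.64 and 12.99 in OM, 14.00, 13.97 and 13.89 in OM+G, 11.26, 12.19 and 12.79 in OM+N, and 13.67, 13.63 and 13.51 in OM+N+G. In paxillus_5485 they were 13.04, 13.69 and 12.98 in OM, 13.93, 13.92 and 13.78 in OM+G, 11.27, 12.23 and 12.64 in OM+N, and 13.60, 13.54 and 13.50 in OM+N+G. Both had OM+N replicate 1 far below the other OM+N arrays, and in both every OM array was still above every OM+N array. Their OM minus OM+N differences of 1.22 and 1.19 were 0.64 and 0.57 without the 2 arrays. With glucose the ammonium differences were 0.35 and 0.33.

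Among the members paxillus_8739 had the largest ammonium difference averaged over both glucose levels, 0.84, followed by paxillus_5484 with 0.78. Its values were 12.77, 13.28 and 12.57 in OM, 13.41, 13.32 and 13.45 in OM+G, 10.95, 12.11 and 12.01 in OM+N, and 13.00, 12.91 and 12.80 in OM+N+G. OM and OM+N+G overlapped and their means differed by 0.03, which is less than the spread of the OM arrays (SD 0.36, n = 3). It also lay closest under the upper bound of the rule, with 0.49 between OM+G and OM+N+G.

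Another 3 members kept a difference of about 0.4 between OM and OM+N. In paxillus_951 the values were 11.71, 12.46 and 11.58 in OM, 12.84, 12.79 and 12.89 in OM+G, 11.18, 11.02 and 11.42 in OM+N, and 12.50, 12.48 and 12.39 in OM+N+G. Here OM+N replicate 2, not replicate 1, was the lowest of its group, and the difference of 0.71 was 0.42 without the 2 arrays. In paxillus_1014 they were 12.65, 12.94 and 12.48 in OM, 13.44, 13.33 and 13.38 in OM+G, 11.35, 12.41 and 11.92 in OM+N, and 13.14, 13.18 and 12.94 in OM+N+G. Its lowest OM array was 0.07 above its highest OM+N array. In paxillus_8951 they were 12.55, 12.83 and 12.05 in OM, 13.30, 13.30 and 13.26 in OM+G, 11.41, 12.08 and 11.73 in OM+N, and 12.98, 12.99 and 12.99 in OM+N+G. OM replicate 3 of this feature was below OM+N replicate 2 by 0.03, so the groups overlapped, while both groups with glucose were free of overlap and nearly without spread.

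In 6 further members the OM minus OM+N difference was between 0.25 and 0.33 without the 2 arrays, after 0.64 to 0.91 with them. The values of paxillus_8637 were 12.63, 13.11 and 12.26 in OM, 13.53, 13.56 and 13.55 in OM+G, 11.50, 12.22 and 12.00 in OM+N, and 13.24, 13.23 and 13.16 in OM+N+G. Those of paxillus_8493 were 12.89, 13.32 and 12.63 in OM, 13.84, 13.76 and 13.74 in OM+G, 11.80, 12.37 and 12.52 in OM+N, and 13.39, 13.55 and 13.24 in OM+N+G. In both, OM replicate 3 stood only 0.04 and 0.11 above the highest OM+N array, and OM+G and OM+N+G did not overlap.

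The pattern was less even in paxillus_5498, with 11.58, 12.20 and 11.40 in OM, 12.71, 12.64 and 12.70 in OM+G, 10.78, 11.23 and 11.14 in OM+N, and 12.40, 12.35 and 11.88 in OM+N+G. Its OM+N+G replicate 3 lay below OM replicate 2. A similar raised OM replicate 2 was seen in paxillus_516, with 12.37, 13.13 and 12.26 in OM, 13.26, 13.31 and 13.38 in OM+G, 10.99, 12.06 and 11.99 in OM+N, and 12.97, 13.06 and 12.95 in OM+N+G. There OM replicate 2 exceeded all 3 OM+N+G arrays.

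The values of paxillus_7334 were 12.69, 13.13 and 12.48 in OM, 13.57, 13.48 and 13.48 in OM+G, 11.71, 12.44 and 12.23 in OM+N, and 13.24, 13.30 and 13.06 in OM+N+G. It was the member closest above the bound without the 2 arrays, at 0.254. In paxillus_8511 the values were 12.41, 12.83 and 12.00 in OM, 13.11, 13.03 and 13.24 in OM+G, 11.30, 12.19 and 11.67 in OM+N, and 12.88, 12.89 and 12.68 in OM+N+G. OM replicate 3 of this feature lay below OM+N replicate 2 by 0.19.

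The last pair, paxillus_3884 and paxillus_7849, had the smallest pooled standard deviations of the 15, 0.13 and 0.14, and among the 15 their OM minus OM+N difference moved least without the 2 arrays. In paxillus_3884 the values were 11.89, 11.95 and 11.87 in OM, 12.78, 12.69 and 12.43 in OM+G, 11.48, 11.76 and 11.45 in OM+N, and 12.26, 12.10 and 12.19 in OM+N+G. In paxillus_7849 they were 11.65, 11.93 and 11.54 in OM, 12.22, 12.30 and 12.20 in OM+G, 11.28, 11.27 and 11.37 in OM+N, and 12.02, 11.75 and 11.66 in OM+N+G. Groups compared for ammonium did not overlap in either. The OM minus OM+N difference went from 0.34 to 0.27 in the first and from 0.40 to 0.27 in the second, and both had a larger ammonium difference with glucose, 0.45 and 0.43, than without.

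**Figure D4:**
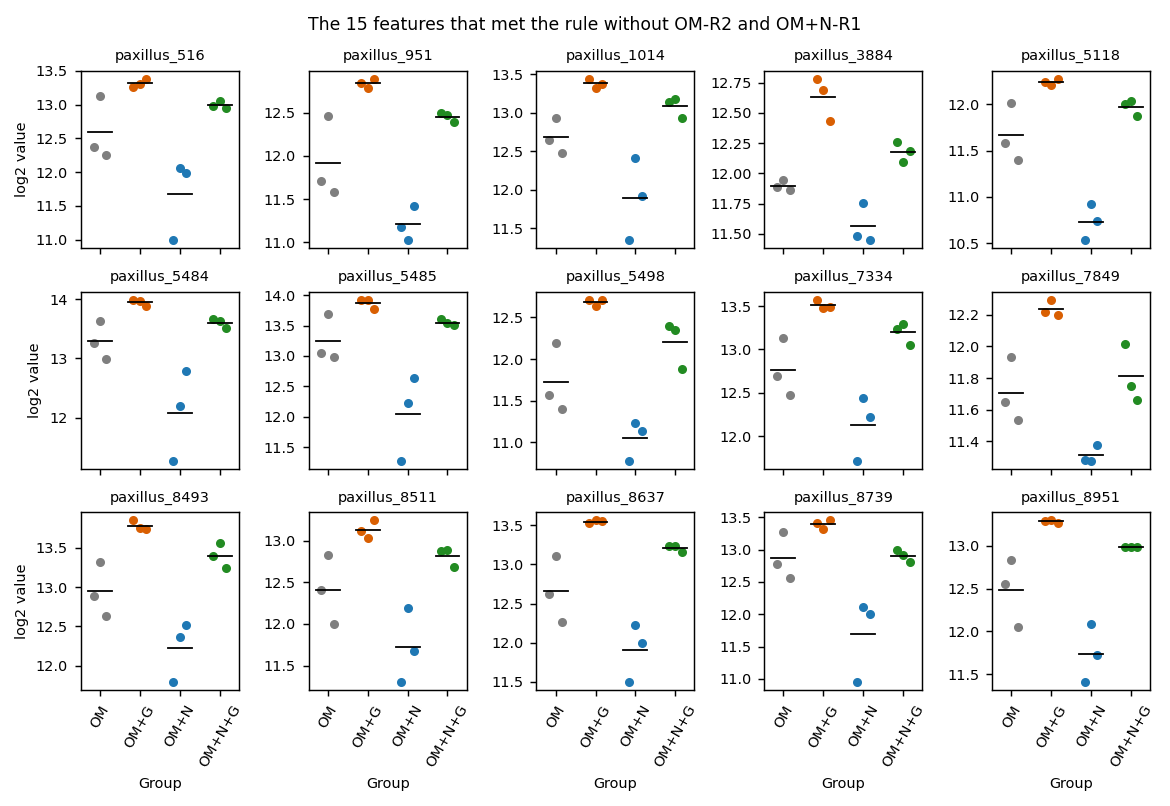
Each panel shows one of the 15 members that met the thresholds without OM-R2 and OM+N-R1; points are the log2 values of replicates 1, 2 and 3 from left to right in each of the 4 groups, and bars are group means. The vertical scale differs between panels. OM+G points lie above the OM+N+G points in every panel, and OM points above OM+N points in all but paxillus_8511 and paxillus_8951, where the ranges overlap.

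Among the 25 members that dropped out, 2 came close to staying. In paxillus_4226 the OM minus OM+N difference went from 0.85 to 0.246, and in paxillus_1892 from 0.44 to 0.23. The values of paxillus_4226 were 11.75, 12.53 and 11.56 in OM, 12.95, 12.91 and 12.91 in OM+G, 10.49, 11.48 and 11.34 in OM+N, and 12.72, 12.71 and 12.43 in OM+N+G. The 3 OM arrays were above the 3 OM+N arrays, but OM replicates 1 and 3 only by 0.28 and 0.08 over the highest of these.

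The widest scatter was that of paxillus_8036, with a pooled standard deviation of 0.57. Its values were 13.36, 13.61 and 13.04 in OM, 13.91, 13.98 and 13.93 in OM+G, 11.56, 13.35 and 13.52 in OM+N, and 13.69, 13.68 and 13.38 in OM+N+G. OM+N replicate 1 alone was low. Without the 2 arrays the OM mean was 0.24 below the OM+N mean, the only turned sign among the 40, and the glucose difference with ammonium was 0.15.

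Averaged over both ammonium levels, the largest glucose differences among the members were 1.31 in paxillus_6977, with 1.15 without and 1.48 with ammonium, and 1.30 in paxillus_5382, with 1.29 and 1.30. In the presence of ammonium, paxillus_5484 and paxillus_4226 at 1.52 and paxillus_5485 at 1.499 lay higher. The values of paxillus_6977 were 10.98, 11.50 and 10.68 in OM, 12.23, 12.14 and 12.23 in OM+G, 10.12, 10.65 and 10.64 in OM+N, and 12.05, 12.04 and 11.76 in OM+N+G. Those of paxillus_5382 were 9.84, 10.26 and 9.69 in OM, 11.13, 11.28 and 11.27 in OM+G, 9.66, 9.60 and 9.76 in OM+N, and 11.10, 11.08 and 10.75 in OM+N+G. Arrays with glucose stood clear of those without it in both. In paxillus_5382 the OM and OM+N arrays overlapped, and its ammonium differences of 0.26 and 0.25 were at the bounds of the rule.

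The smallest spread belonged to paxillus_6300 and paxillus_5087, with pooled standard deviations of 0.11. Their ammonium differences were small as well, 0.29 and 0.26 in paxillus_6300 and 0.27 and 0.25 in paxillus_5087 without and with glucose, and the first of each became 0.15 without the 2 arrays. In paxillus_6300 the values were 11.42, 11.69 and 11.32 in OM, 12.19, 12.15 and 12.27 in OM+G, 11.13, 11.25 and 11.18 in OM+N, and 11.94, 12.01 and 11.87 in OM+N+G. No groups of this feature overlapped, including OM+N+G over OM.

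In the remaining 19 members that dropped out, the OM minus OM+N difference lay between 0.06 and 0.21 without the 2 arrays. They were paxillus_1652, paxillus_3252, paxillus_4295, paxillus_4858, paxillus_5025, paxillus_5026, paxillus_5033, paxillus_5122, paxillus_5146, paxillus_7397, paxillus_7715, paxillus_8291, paxillus_8485, paxillus_8533, paxillus_8550, paxillus_8980, paxillus_11703 and paxillus_12899 together with paxillus_5087 named above. The largest OM+G minus OM+N+G differences among them were 0.46 in paxillus_5146, 0.44 in paxillus_8485 and 0.43 in paxillus_5033. The values of paxillus_8485 were 11.58, 12.14 and 11.64 in OM, 12.66, 12.54 and 12.58 in OM+G, 11.33, 11.48 and 11.44 in OM+N, and 12.18, 12.15 and 12.13 in OM+N+G.

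The bounds cut through a continuous range. For OM minus OM+N the members nearest the bound of 0.25 were paxillus_8980 at 0.251 and paxillus_4858 at 0.260, and the nearest features outside it alone were paxillus_1089 at 0.236 and paxillus_7539 at 0.223. At the upper bound of 0.5 for OM+G minus OM+N+G, paxillus_8739 and paxillus_5498 lay inside at 0.493 and 0.478, and paxillus_5632 and paxillus_3844 outside at 0.512 and 0.539. The lower bound of 0.25 kept out the most features: 371 met every other condition, of which paxillus_8174 at 0.245 came nearest. The bound on OM minus OM+N alone kept out 26 features, that on OM+G minus OM alone 12 and the upper bound 4.

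The separation of arrays was counted against all 12214 features, with nothing read from it, since the rule used the same means. OM+G lay above OM without overlap in 40 of 40 members (33.0% of all features), and OM+N+G above OM+N in 39 (33.7%), with paxillus_8036 as the exception. All 40 had OM+G above OM+N+G (13.6%), and 28 had OM above OM+N (6.31%). Leaving out both arrays left these 28 as they were (17.6% of all features for 2 against 2 arrays), because OM replicate 2 was never the lowest OM array and OM+N replicate 1 never the highest OM+N array of a member. OM+N+G lay above OM in 17 (32.2%). Without OM replicate 2 it did so in all 40 (36.3% of all features).

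The fit of limma to all features called a change at a Benjamini-Hochberg adjusted p under 0.05. For glucose without ammonium 36 of 40 members were called higher (29.8% of all features), and with ammonium 39 (32.7%). For ammonium without glucose only paxillus_5118 was called lower (0.246% of all features), and with glucose 4 were, paxillus_3884, paxillus_5033, paxillus_7849 and paxillus_8485 (1.92%). No member was called by limma for the interaction, the glucose difference with ammonium minus that without it (0.737% of all features), and 3 of 40 had an unadjusted p under 0.05. The rule used these contrasts, so the counts describe how far single features stood out from the spread between arrays. Unadjusted p-values were counted for the members only, so that count has no share of all features beside it.

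The ammonium counts turned on the arrays in the fit. Without both arrays, 25 of 40 members were called lower with ammonium in the presence of glucose (2.96% of all features), although neither array belongs to that contrast, and a fit to the OM+G and OM+N+G arrays alone called 27 (2.33% of all features). The pooled spread of all 4 groups entered the fit that called 4. Leaving out OM replicate 2 gave 14 (2.44% of all features), OM replicate 3 gave 8 (1.87%) and OM+G replicate 3 gave 1 (1.42%). In limma the count was 0 without OM+G replicate 1 (1.10%), OM+G replicate 2 (1.15%), OM+N+G replicate 2 (1.30%) or OM+N+G replicate 3 (1.12%), where 16, 17, 18 and 14 members had an unadjusted p under 0.05. In the absence of glucose 2 members, paxillus_5118 and paxillus_8739, were called without both arrays (0.196% of all features). There, leaving out OM replicate 3 gave 9 (0.884%), OM+N replicate 2 gave 5 (0.671%) and OM+N replicate 3 gave 3 (0.188%). A limma fit to the OM and OM+N arrays alone called 0 (0.0164%), with 36 at an unadjusted p under 0.05. The unadjusted counts were made for the members only, without a share of all features, and nothing is read from them.

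The glucose difference with ammonium minus that without it is the same quantity as the ammonium difference without glucose minus that with glucose. The rule held OM+G minus OM+N+G under 0.5 and left OM minus OM+N without an upper bound, so the sign of this quantity is a description only. With all arrays it was above 0 in 30 of the 40 members (43.9% of all features), with a median of 0.18. On leaving out the 2 arrays it was above 0 in 7 (49.0% of all features), and the median was -0.13. The corresponding medians of the other 1332 glucose-raised features were 0.16 and 0.001.

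The rule was also applied to 2 arrays of each group, and the directions were then read from the third arrays, which it had not used. The thresholds had been set with all arrays known, so the shares are a description. They are given beside those of the other features that met the mean and glucose conditions in the same 2 arrays, a background added after seeing the data. With the arrays of replicate 1 held out, 45 features met the rule, and in the held-out arrays OM lay above OM+N in 44 of them (97.8%), against 77.6% of 1269 other glucose-raised features. OM+G lay above OM+N+G in 42 (93.3%), against 32.8%. With replicate 2 held out, the counts were 49 of 49, against 89.3% of 1671, and 47 of 49 (95.9%), against 46.1%. With replicate 3 held out they were 22 of 29 (75.9%), against 40.6% of 1020, and 27 of 29 (93.1%), against 61.0%. For OM over OM+N the other glucose-raised features thus also had high shares where OM+N replicate 1 or OM replicate 2 was held out. Glucose directions held in the third arrays for every feature chosen, apart from 2 of 49 for OM+G over OM with replicate 2 held out.

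Sizes in the held-out arrays differed with the array. The median of OM minus OM+N was 0.58 where OM+N replicate 1 was held out, 0.635 where OM replicate 2 was, and 0.14 where replicate 3 was and both of these arrays had served for the choice. The other glucose-raised features had 0.18, 0.26 and -0.03 there. For OM+G minus OM+N+G the medians were 0.24, 0.25 and 0.38, against -0.06, -0.01 and 0.06. All 4 directions held together in 107 of 123 choices (87.0%), or in 91.1%, 91.8% and 72.4% with replicates 1, 2 and 3 held out, against 28.0%, 43.1% and 28.3% of the other glucose-raised features. The 4 differences share arrays, and a feature chosen more than once is counted each time. Not all of the features chosen were members. No p-value is attached to these shares.

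Members were unevenly placed in the numbering of the features. Of the 40, 22 carry numbers in the 5000s or the 8000s, 11 in each, which is 1.21% and 1.10% of the features there. In each other block of 1000 numbers members made up at most 0.40%. The other glucose-raised features were 16.4% and 14.5% of these blocks and most frequent, at 22.5%, in the 7000s. What the numbers stand for is not stated in the files, and numbers near to each other may or may not be neighbouring genes.

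The pairs with consecutive numbers behaved alike across the 12 arrays. The log2 values of paxillus_5484 and paxillus_5485 correlated with r = 0.995 and their deviations from the group means with 0.976. For paxillus_5025 and paxillus_5026 the values were 0.986 and 0.933. Over the 282 consecutive pairs among all 1372 glucose-raised features the medians were 0.954 and 0.657. Whether probes of such a pair detect the same transcript was not tested. Close likeness was not limited to consecutive numbers. Members paxillus_6977 and paxillus_7334, 357 numbers apart, had 0.978 and 0.956, while paxillus_3252 and paxillus_3884, 632 apart, had 0.931 and 0.178. Over all 780 pairs of members the deviations correlated with a median of 0.75. In paxillus_5025 the OM minus OM+N difference was 0.62 and in paxillus_5026 0.63, and they became 0.21 and 0.17 without the 2 arrays.

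Single arrays decided the membership of features near the bounds. Leaving out each of the 12 arrays in turn, 13 of the 40 members met the rule every time, and 7 of these also met it without both arrays: paxillus_516, paxillus_951, paxillus_5484, paxillus_5485, paxillus_8493, paxillus_8637 and paxillus_8951. The least stable was paxillus_4295, which met it in 6 of 12. Among the 15 that kept the pattern, paxillus_8739, close to 2 bounds, met it in 7 of 12 and the others in at least 10.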

How the data were processed

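Transcript levels were measured on 12 single-colour NimbleGen subarrays of 1 slide. The authors deposited log2 values from RMA, a step named in the submitters' processing notes. Neither software, settings nor log base is stated there, and log2 was inferred from the range. A deposited score named as the error of the value was not used, and the deposited number of probes per feature was 10 for 12203 features and fewer for 11. The series table and the per-array files were identical. The random-sequence control was left out.

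The members and lists were chosen with earlier results of these data known. Features were named by a rule: all members kept without both arrays, the extremes in glucose difference, ammonium difference and spread, those nearest the bounds, and consecutive numbers; further members were named after their values were seen. Group means of all 12214 features were fitted with limma 3.58.1 in R 4.3.3 (lmFit, contrasts.fit, eBayes), with Benjamini-Hochberg adjustment over all features and calls at 0.05. The fit was tested on simulated data. The simulation drew independent noise for each feature and changed OM+G only, so it does not cover the ammonium or interaction calls. Precision is limited by the number of arrays, and p-values rest on a spread in which culture and subarray are combined. Alternatives were leaving out arrays, 3 other normalizations, group medians, a replicate block, a trended robust fit, a filter on dim features and fits to single contrasts.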

Additional observations from a re-analysis of the deposited data

How the results depend on the processing

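The number of features meeting the rule was 40, and 16 when OM replicate 2 and OM+N replicate 1 were both left out, of which 15 were among the 40. Leaving out both arrays after another normalization, an alternative chosen after seeing the data, gave 16 features after cyclic loess, 16 after scaling to the 75th percentile and 19 after quantile normalization, with 16, 16 and 17 of the 40 among them. With medians in place of means 19 of the 40 met it. Without single arrays 26 to 39 of the 40 did, the fewest without OM+N+G replicate 3. With cyclic loess, percentile scaling or quantile normalization over all arrays, 34, 36 and 30 did, and both ammonium differences of all 40 kept their sign. The sign of OM minus OM+N turned for paxillus_8036 without both arrays (-0.24); the low OM+N replicate 1 is then absent. Members called lower with ammonium in the presence of glucose numbered 4 (1.92% of all features), with 25 without both arrays (2.96%), 0 to 14 without single arrays (1.10% to 2.44%), 2 after quantile normalization (1.57%), 9 with an intensity trend and robust moderation (2.24%), 7 among features with a mean of at least 6 (2.24%) and 27 with the arrays of the contrast only (2.33%). In the absence of glucose the count was 1 (0.246%), with 2 without both arrays (0.196%), 1 to 9 without single arrays (0.139% to 0.884%), 2 with trend and robust moderation (0.434%), 4 among the brighter features (0.522%) and 0 with the arrays of the contrast only (0.0164%). Deviations of same-numbered arrays from their group means correlated between -0.31 and 0.51, which does not settle whether the numbers pair the arrays. The labels do not tie arrays to cultures. With a replicate block the counts for glucose were 37 without ammonium (29.5% of all features) and 39 with it (32.4%). Those for ammonium were 1 without glucose (0.295%) and 4 with it (1.73%). No member was called for the interaction in limma under any setting run, where 0.205% to 1.18% of all features were called. The share of held-out directions was 87.0%, and 72.4% with replicate 3 held out. Not all of the features counted there were members. Apart from the sets of arrays the causes were not tested.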
